A study of Mus musculus with 12 samples.

Results

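The genes described here encode demethylases that need molecular oxygen: 8 histone lysine demethylases of the JmjC family (Kdm2a, Kdm2b, Kdm3a, Kdm3b, Kdm4a, Kdm4b, Kdm4c and Kdm6b) and 2 TET enzymes that oxidise methylated cytosine in DNA (Tet2 and Tet3). They were taken by name from a list drawn up with earlier results of these data known, and each Ensembl identifier of the count table was matched to its mouse symbol. All 10 were found once among 54838 genes, and all 10 were among the 13861 genes that passed the low-count filter. The RNA came from whole liver of C57BL/6J mice. Normoxia_PBS mice were kept at 21% O2 and injected with PBS, and Normoxia_DEX mice were kept at 21% O2 and given dexamethasone (DEX), a synthetic agonist of the glucocorticoid receptor, at 10 mg/kg intraperitoneally. Hypoxia_PBS and Hypoxia_DEX mice spent 24 h at 7% O2, received PBS or the same dose of DEX, and were returned to 7% O2. All mice were sampled 2 h after the injection, and each group held 3 biological replicates. The handling of the injection is therefore shared by all 4 groups, and DEX was present only for the last 2 h. Whole liver mixes hepatocytes with several other cell types, so a level is an average over them.

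JmjC demethylases and TET enzymes belong to the iron-dependent dioxygenases, which use O2 and 2-oxoglutarate as cosubstrates, release succinate and carbon dioxide, and are inhibited by succinate and fumarate. JmjC enzymes remove methyl groups from lysines of histone H3, and TET enzymes convert 5-methylcytosine to 5-hydroxymethylcytosine as the first step of its removal. In cultured human cells KDM3A, KDM4B and KDM4C are known targets of hypoxia-inducible factor (HIF), the transcription factor that builds up when oxygen is low. Counts of messenger RNA, as measured here, say nothing about enzyme activity or about methylation itself.

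Depth ranged from 12464687 to 24715995 counts per library. Counts for the 10 genes ran from 66 (Kdm2b in Hypoxia_DEX-2) to 1471 (Kdm2a in Normoxia_PBS-2). Hypoxia_DEX-1 and Hypoxia_DEX-3 were nearly the same: a chi-square comparison gave 1.87 per gene, where sampling noise alone gives about 1, against 11.5 to 42.4 for the other 11 pairs of replicates. They differed by more than sampling noise and were kept as separate libraries, but whether they came from 1 animal cannot be told apart from close replicates, and if they did the group holds 2 animals and not 3. Summing them lowered the number of genes called for DEX in hypoxia from 1827 to 1160, and among the 10 genes the call of Kdm2a was lost there while those of Kdm3b, Tet2 and Tet3 held. Hypoxia_DEX-2 differed from the pair by 16.1 and 17 per gene, within the range of other replicate pairs. Hypoxia_PBS-1 gave the largest value, 42.4 against Hypoxia_PBS-2. For the 10 genes, calls that changed without either library are given so or counted among the alternatives. Without Hypoxia_DEX-2 that group consists of the alike pair alone, so its spread is then smaller than that of the other groups, and a call gained this way carries that limit. The genes used to check the labels moved as labelled. Fkbp5 and Tsc22d3, which glucocorticoids induce, rose with DEX by 2.46 and 1.85 on the log2 scale in normoxia and by 1.103 and 0.67 in hypoxia. Bnip3 and Pdk1, which HIF induces, rose with hypoxia by 1.33 and 1.08 in PBS mice and by 0.79 and 1.154 in DEX mice (edgeR, adjusted p at most 0.0450 in all 8 tests). In hypoxia the call of Tsc22d3 was lost in 13 of 19 alternative analyses and that of Fkbp5 in 4. The 2 pairs were not exclusive: Fkbp5 also rose with hypoxia in PBS mice by 1.32 (adjusted p = 0.00277), and Bnip3 with DEX in normoxia by 1.06 (adjusted p = 4.22e-06). Bnip3 rose with DEX in hypoxia too, by 0.52 (edgeR adjusted p = 0.00219). Among DEX mice Tsc22d3 was lower in hypoxia, at -1.52 (edgeR adjusted p = 0.000121). The 8 hepatocyte markers summed to 123179 to 132843 CPM (counts scaled to library size and composition, TMM) in Normoxia_PBS, 146813 to 160516 in Normoxia_DEX, 129099 to 149459 in Hypoxia_PBS and 138254 to 143363 in Hypoxia_DEX.

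For the genes with a matching window in RefSeq's promoter table, 3 stretches are shown because each carries a HIF core motif, and they were picked with the genes' results known: Kdm3a fell in hypoxia, Kdm4c was called in no comparison, and Tet2 fell with DEX in hypoxia. Such a window spans 250 bases before and 50 bases after an annotated start, and 6 of the 10 genes had at least 1. Capitals mark ACGTG or GCGTG on either strand, the HIF core, so a match on the opposite strand reads CACGT or CACGC. Overlapping matches on the 2 strands were each counted. All are printed 5′ to 3′ on the gene's own strand (RefSeq, GRCm38.p6). The Kdm3a stretch is chr6:71632927-71632956 on the minus strand and lies inside the 5′ untranslated exon of 1 annotated transcript, upstream of another start. The Kdm4c stretch is chr4:74251629-74251878 on the plus strand, within an intron of 1 annotated transcript and partly over an exon of an antisense gene, A230083N12Rik. The Tet2 stretch is chr3:133544391-133544640 on the minus strand, also within an intron of 1 annotated transcript.
Kdm3a: ccgggaggctgtGCGTGtcttgtgagagag
Kdm4c: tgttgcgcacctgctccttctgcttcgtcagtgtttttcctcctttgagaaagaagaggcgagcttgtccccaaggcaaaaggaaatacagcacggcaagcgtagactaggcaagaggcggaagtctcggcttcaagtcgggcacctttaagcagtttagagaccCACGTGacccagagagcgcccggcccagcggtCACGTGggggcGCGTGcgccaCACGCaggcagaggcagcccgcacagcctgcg
Tet2: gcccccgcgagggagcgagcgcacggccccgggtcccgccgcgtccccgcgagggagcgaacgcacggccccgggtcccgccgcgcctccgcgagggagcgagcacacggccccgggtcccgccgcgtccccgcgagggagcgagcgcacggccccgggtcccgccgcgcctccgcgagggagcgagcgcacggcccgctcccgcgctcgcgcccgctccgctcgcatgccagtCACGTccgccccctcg
The Kdm3a core began 27 bases before the start, in 1 of the gene's windows. The Kdm4c stretch held 6 core matches, 4 of them from 2 copies of the palindrome CACGTG (an E-box), which reads as a core on both strands. The Tet2 core began 16 bases before the start, and the same window held 1 AGAACA, a glucocorticoid receptor motif, after the start. The start of that Kdm4c window was not found in a GENCODE transcript, and the other Kdm4c window, whose start was, held 0 matches. Kdm2b had 4 windows, not printed here, with 3, 3, 1 and 1 core matches. The windows of Kdm4a and Tet3 held none of these motifs. Such letters are common: over 32851 windows of 300 bases, 43.8% held a HIF core, 7.15% held CACGTG and 19% held AGAACA on either strand. A match is a description of the sequence, and whether any factor binds there was not measured.

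By the GENCODE M21 annotation of mm10, Kdm2a (ENSMUSG00000054611) lies at chr19:4314419-4398285, Kdm2b (ENSMUSG00000029475) at chr5:122870665-122989823, Kdm3a (ENSMUSG00000053470) at chr6:71588972-71632990, Kdm3b (ENSMUSG00000038773) at chr18:34777047-34838660, Kdm4a (ENSMUSG00000033326) at chr4:118136957-118180043, Kdm4b (ENSMUSG00000024201) at chr17:56326062-56402870, Kdm4c (ENSMUSG00000028397) at chr4:74242497-74405860, Kdm6b (ENSMUSG00000018476) at chr11:69398508-69413675, Tet2 (ENSMUSG00000040943) at chr3:133463679-133545139 and Tet3 (ENSMUSG00000034832) at chr6:83362373-83459084.

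Levels were compared between genes as CPM per kilobase of annotated exon. In control liver (Normoxia_PBS) the order, from high to low, was Kdm4a with 6.42 ± 1.08 (SD, n = 3), Kdm2a with 4.83 ± 0.323, Kdm6b with 4.64 ± 0.834, Kdm3b with 2.92 ± 0.116, Kdm3a with 2.65 ± 0.565, Kdm4b with 2.63 ± 0.159, Kdm4c with 1.76 ± 0.0895, Tet3 with 1.67 ± 0.329, Tet2 with 1.25 ± 0.0218 and Kdm2b with 0.490 ± 0.148. The replicate ranges of the neighbours Kdm2a and Kdm6b, Kdm3b and Kdm3a, Kdm3a and Kdm4b, and Kdm4c and Tet3 overlapped, so their order was not resolved. By group means Kdm4a was first and Kdm2b last in all 4 groups. The ranges of Kdm4a and Kdm6b overlapped in every group but Normoxia_DEX, so the first place of Kdm4a was not resolved in the groups with overlap. In Hypoxia_PBS and Hypoxia_DEX the highest Kdm6b library, at 7.86 and 7.65, lay above every Kdm4a library. The middle of the order moved: Kdm3a ranked 5 in Normoxia_PBS, 6 in Normoxia_DEX, 8 in Hypoxia_PBS and 7 in Hypoxia_DEX, and Kdm3b ranked 4, 2, 5 and 3 in the same groups. Replicates of Tet2 were the closest, with a median coefficient of variation over the groups of 2.03%, and those of Kdm6b (22.4%) and Kdm2b (21.6%) were the furthest apart.

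**Figure D1:**
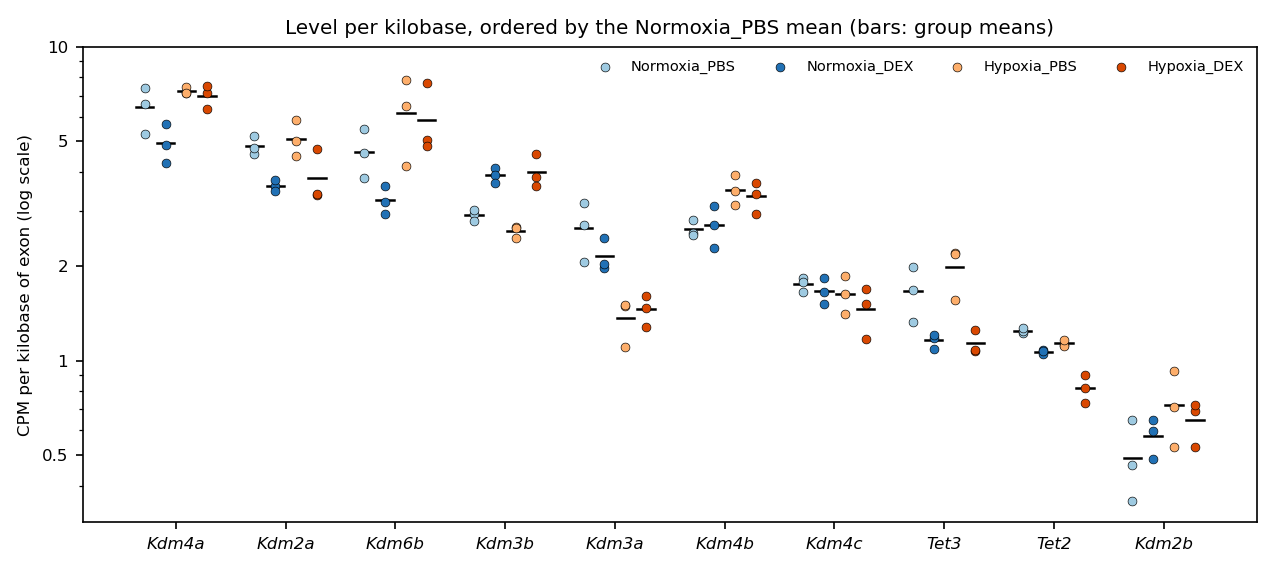
Level of each gene in each library, in CPM per kilobase of exon on a log axis, with points for libraries (n = 3 per group) and bars for group means, ordered by the Normoxia_PBS mean. By group means Kdm4a lies at the top and Kdm2b at the bottom in every group, though single Kdm6b points lie above Kdm4a points. The Kdm3a points of the hypoxia groups lie below those of the normoxia groups.

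Hypoxia in PBS mice lowered Kdm3a and raised Kdm4b, and the other 8 genes did not pass the threshold (edgeR's quasi-likelihood test, Benjamini-Hochberg adjusted p under 0.05 over all tested genes). With 2 of 10 genes called, the share lay below that of all tested genes, of which 35.7% were called, 18.9% higher and 16.8% lower. In DEX mice 4 of 10 genes were called between oxygen levels: Kdm4a and Kdm6b were higher in hypoxia, and Kdm3a and Tet2 were lower. The background there was 42.9% of all tested genes, 20.7% higher and 22.2% lower. The replicate ranges of 4 of the 10 genes were separate in PBS mice and of 4 in DEX mice, against 45.7% and 56.6% of all tested genes. The median log2 fold change of the 10 genes was 0.13 in PBS mice and 0.055 in DEX mice, beside 0.0069 and -0.021 for all tested genes.

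DEX changed 4 of 10 genes in normoxia, with Kdm3b higher and Kdm2a, Kdm4a and Tet3 lower. In all, 16.8% of tested genes were called in that comparison, 9.38% higher and 7.4% lower. DEX also changed 4 of 10 in hypoxia, with Kdm3b higher and Kdm2a, Tet2 and Tet3 lower, against 13.2% of all tested genes, 6.13% higher and 7.05% lower. Ranges were separate for 5 genes in normoxia and 3 in hypoxia, against 35.9% and 29.9% of all tested genes. The median log2 fold change of the 10 genes was -0.26 in normoxia and -0.12 in hypoxia, beside 0.0021 and -0.015 for all tested genes. The 2 DEX comparisons use different libraries, but each shares a group with an oxygen comparison. Kdm2b and Kdm4c were called in none of the 4 comparisons. Markers of other cells moved with DEX in normoxia too. Hepatocyte marker sums were higher and did not overlap, with 2 of 8 markers called higher, and lymphocyte sums went from between 5.80 and 8.72 CPM to between 3.73 and 4.60 CPM, with 2 of 6 tested markers lower. Cholangiocyte sums went from between 43.2 and 65.8 CPM to between 31.8 and 37.7 CPM, with 1 of 5 tested markers lower. In hypoxia the sums with and without DEX overlapped for these 3 cell types. Stellate cell sums did not overlap there, at 253 to 290 CPM with PBS and 301 to 315 CPM with DEX, with 0 of 8 markers called. Of 9 sinusoidal endothelial markers DEX raised 4 and lowered 1 in normoxia, and raised 2 and lowered 1 in hypoxia. Their sums with and without DEX overlapped at both oxygen levels. The part of these shifts in the DEX differences of the 10 genes and of the related genes below was not tested. Because 10 genes are few, these shares are descriptions and were not tested against the background.

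**Figure D2:**
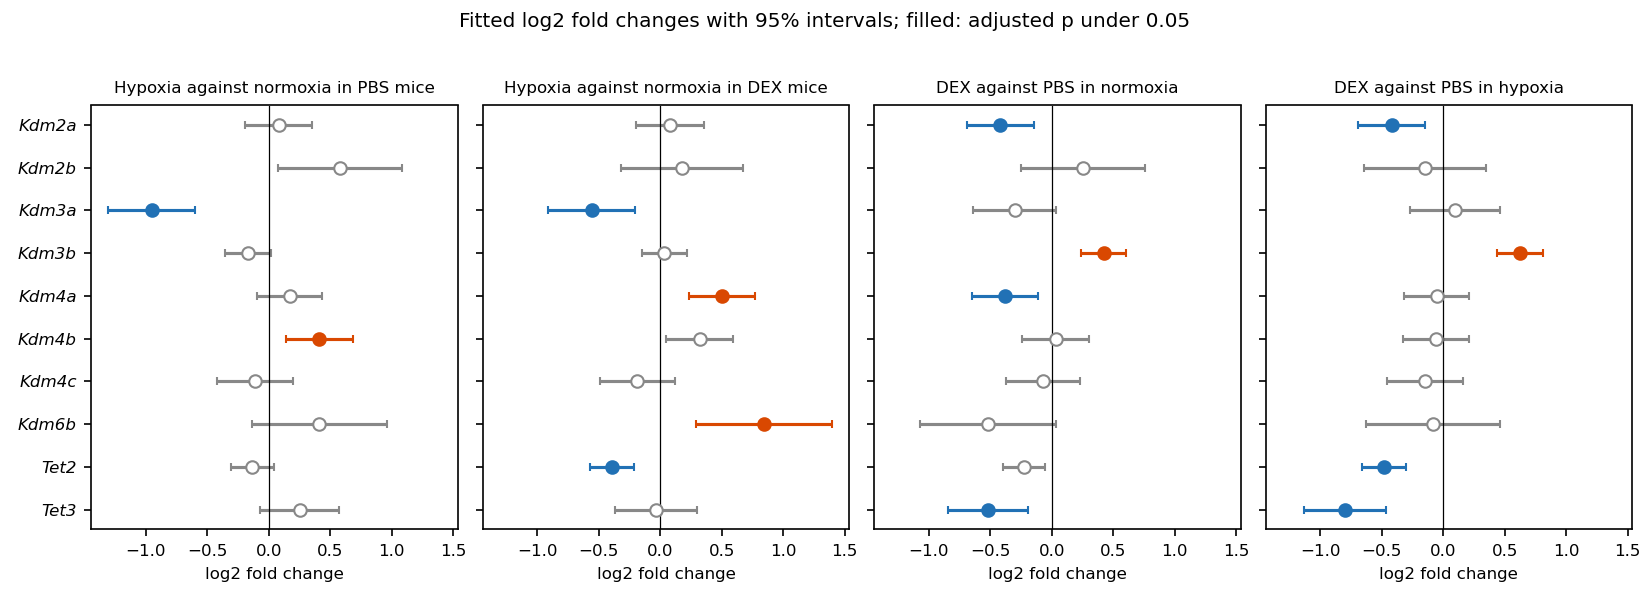
Fitted log2 fold changes of the 10 genes in the 4 comparisons, with 95% intervals from edgeR over 12 libraries. Filled symbols mark an adjusted p under 0.05, orange for higher and blue for lower; Kdm3a stands furthest to the left in hypoxia among PBS mice, and Kdm3b is the filled orange symbol in both DEX comparisons.

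Kdm3a and Kdm3b both remove mono- and dimethyl marks from lysine 9 of histone H3, marks tied to gene silencing, and they moved in different comparisons. Kdm3a measured 26.2, 22.3 and 16.9 CPM in Normoxia_PBS, 16.3, 16.7 and 20.3 in Normoxia_DEX, 12.3, 9.13 and 12.4 in Hypoxia_PBS, and 13.3, 10.6 and 12.1 in Hypoxia_DEX. Each of the 6 hypoxia libraries lay below each of the 6 normoxia libraries. In PBS mice Kdm3a was lower in hypoxia by a log2 fold change of -0.95 ± 0.16 (SE), a decrease to 0.516 of the normoxic level (edgeR, adjusted p = 0.000684). That call held in all 19 alternative analyses, between -1.10 and -0.80. In DEX mice the difference was -0.56 ± 0.16 (adjusted p = 0.0146), and it missed the threshold without Hypoxia_DEX-2 (-0.46, adjusted p = 0.0651), without Hypoxia_DEX-3 (-0.55, adjusted p = 0.0510), without Normoxia_DEX-3 (-0.44, adjusted p = 0.0713) or without Hypoxia_DEX-2 and Hypoxia_PBS-1 together (-0.46, adjusted p = 0.0659). DEX gave -0.30 ± 0.16 for Kdm3a in normoxia (adjusted p = 0.228) and 0.094 ± 0.169 in hypoxia (adjusted p = 0.775).

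Kupffer cell markers (the macrophages that live in liver sinusoids) moved with oxygen as well. All 12 of their markers were lower in hypoxia in both arms, and their sum was 527 to 695 CPM in Normoxia_PBS, 570 to 804 in Normoxia_DEX, 215 to 264 in Hypoxia_PBS and 228 to 249 in Hypoxia_DEX, with no marker at 0 in all libraries. In PBS mice 6 of 9 sinusoidal endothelial markers were lower and 1 was higher, with sums of 465 to 512 CPM in Normoxia_PBS and 392 to 415 CPM in Hypoxia_PBS. Of the 8 stellate cell markers 4 were lower, with sums of 285 to 384 and 253 to 290 CPM. Of 5 tested cholangiocyte markers 2 were lower, and their sums overlapped. In DEX mice 5 of 9 endothelial and 6 of 8 stellate cell markers were lower in hypoxia, and 0 were higher. Endothelial sums there were 497 to 555 CPM in Normoxia_DEX and 408 to 420 in Hypoxia_DEX, and stellate cell sums 376 to 400 and 301 to 315 CPM. Of 8 hepatocyte markers 2 were lower in PBS mice and 3 in DEX mice, and their sums were separate only in DEX mice. Lymphocyte markers were lower for 2 of 6 tested in PBS mice. Their sums were 5.80 to 8.72 CPM in Normoxia_PBS and 3.10 to 4.90 in Hypoxia_PBS. Of 5 tested erythroid markers 1 was higher in PBS mice and 1 lower in DEX mice. Their sums were 52.3 to 90.5 CPM in Normoxia_PBS and 91.8 to 106 in Hypoxia_PBS. In DEX mice lymphocyte and erythroid sums overlapped. In this bulk tissue fewer cells of a type and less RNA per cell cannot be told apart, and the part of these shifts in the oxygen differences of Kdm3a and the other genes was not tested.

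Kdm3b, the paralogue, measured 41.3, 39.5 and 42.7 CPM in Normoxia_PBS and 58.1, 55.2 and 52.1 in Normoxia_DEX. In hypoxia it measured 34.7, 37.7 and 37.3 CPM with PBS and 54.2, 64.3 and 50.8 with DEX. Every DEX library lay above every PBS library. DEX raised Kdm3b by 0.42 ± 0.086 in normoxia (1.34-fold, edgeR adjusted p = 0.00358) and by 0.62 ± 0.086 in hypoxia (1.54-fold, adjusted p = 0.000404). Both calls held in all 19 alternatives, at 0.38 to 0.45 and at 0.51 to 0.71. The difference between the 2 responses was 0.20, with a 95% interval of -0.061 to 0.46 (adjusted p = 0.554). Oxygen alone gave -0.17 ± 0.087 in PBS mice (adjusted p = 0.145), although the 2 ranges did not overlap. An antisense gene, Gm26538, covers 24.6% of the exon bases of Kdm3b, and it had 0 to 1 counts per library. The strand setting of the counting is not given, so whether all reads there were counted for Kdm3b cannot be told. The level of Kdm3b per kilobase and its ratio to Kdm3a carry that limit.

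The balance of the pair differed by group. The ratio of Kdm3b to Kdm3a, both per kilobase, was 0.920, 1.03 and 1.47 in Normoxia_PBS and 2.08, 1.92 and 1.5 in Normoxia_DEX. In hypoxia it was 1.65, 2.41 and 1.76 with PBS and 2.39, 3.55 and 2.44 with DEX. All 9 libraries given DEX, hypoxia or both had higher ratios than the 3 libraries of Normoxia_PBS, but the 1.5 of Normoxia_DEX-3 lay just above the 1.47 of Normoxia_PBS-3. With both treatments 2 of 3 ratios exceeded every ratio under hypoxia alone, and 2.39 lay just below the 2.41 of Hypoxia_PBS-2. These ratios are a description and were not tested.

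**Figure D3:**
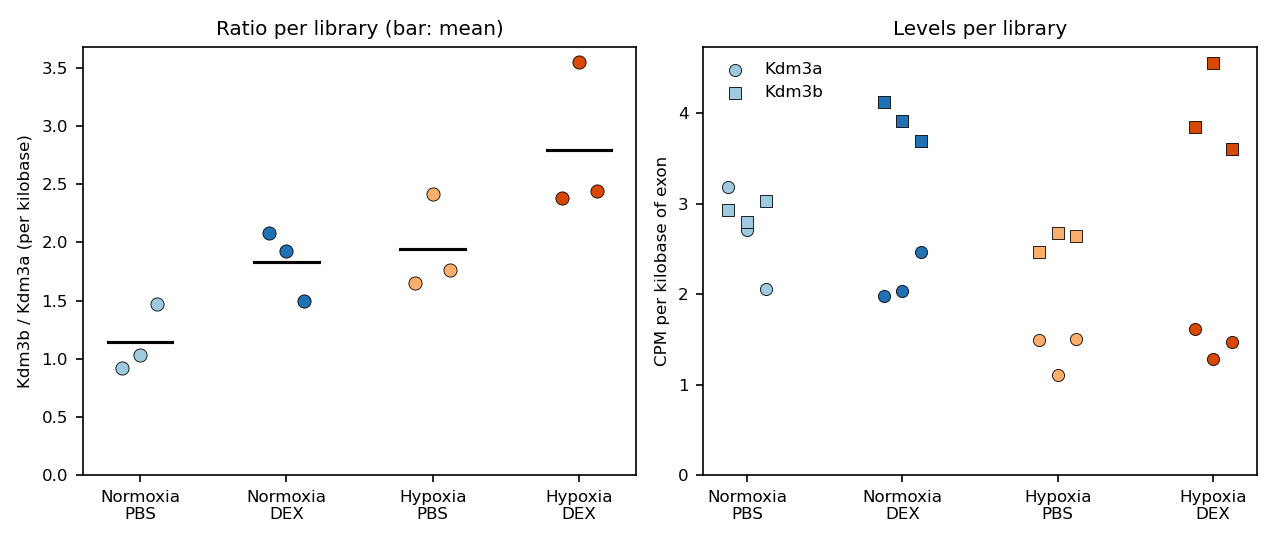
Left, the ratio of Kdm3b to Kdm3a per library, both as CPM per kilobase of exon, with bars for the mean of 3 libraries. Right, the levels of both genes per library (circles, Kdm3a; squares, Kdm3b): in Normoxia_PBS the symbols lie close together, and in Hypoxia_DEX the 2 genes are furthest apart.

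Kdm4a, Kdm4b and Kdm4c remove trimethyl marks from lysines 9 and 36 of histone H3, and their oxygen responses were not alike. Kdm4b measured 12.5, 13.8 and 12.3 CPM in Normoxia_PBS, 15.2, 11.2 and 13.2 in Normoxia_DEX, 15.3, 17.0 and 19.1 in Hypoxia_PBS, and 18.05, 14.4 and 16.7 in Hypoxia_DEX. The PBS groups did not overlap, whereas in DEX mice 14.4 in hypoxia lay below 15.2 in normoxia. Hypoxia raised Kdm4b in PBS mice by 0.41 ± 0.13 (1.33-fold, edgeR adjusted p = 0.0222). That call was lost without Hypoxia_PBS-3 (0.33, adjusted p = 0.0946), Normoxia_PBS-1 (0.39, adjusted p = 0.0659) or Normoxia_PBS-3 (0.38, adjusted p = 0.0632). In DEX mice the difference was 0.32 ± 0.13 and just missed the threshold (adjusted p = 0.0551), and it passed in 6 of 19 alternatives, such as without Hypoxia_DEX-2 (0.42, adjusted p = 0.0246). DEX gave 0.031 ± 0.127 in normoxia and -0.059 ± 0.126 in hypoxia.

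Kdm4a measured 42.8, 38.1 and 30.5 CPM in Normoxia_PBS and 28.1, 24.7 and 33.0 in Normoxia_DEX. It measured 41.4, 43.0 and 41.2 CPM in Hypoxia_PBS and 36.6, 41.3 and 43.4 in Hypoxia_DEX. The Normoxia_DEX libraries were low, with 1 of them inside the range of Normoxia_PBS. In DEX mice Kdm4a was higher in hypoxia by 0.50 ± 0.12 (1.42-fold, edgeR adjusted p = 0.00531), a call that held in all 19 alternatives at 0.42 to 0.63. In PBS mice the oxygen difference was 0.17 ± 0.12 (adjusted p = 0.297). The decrease with DEX in normoxia was -0.38 ± 0.12 (adjusted p = 0.0499). It lay at the threshold and was lost in 14 of 19 alternatives, among them DESeq2 (adjusted p = 0.0551), with adjusted p between 0.00943 and 0.204 over all of them. In hypoxia DEX gave -0.051 ± 0.123, and the difference between the DEX responses was 0.33 with a 95% interval of -0.044 to 0.71 (adjusted p = 0.478).

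Kdm4c was the steadiest of the 3, with group means of 8.49 to 10.2 CPM and no call. Its log2 fold changes were -0.11 for hypoxia in PBS mice (95% interval -0.42 to 0.19), -0.19 for hypoxia in DEX mice (-0.49 to 0.12), -0.072 for DEX in normoxia (-0.37 to 0.23) and -0.15 for DEX in hypoxia (-0.46 to 0.16).

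Kdm6b removes di- and trimethyl marks from lysine 27 of histone H3, the marks set by Polycomb repressive complex 2, and in mouse macrophages it is known as a gene induced by inflammatory stimuli. It measured 26.7, 31.9 and 38.2 CPM in Normoxia_PBS, 22.3, 20.4 and 24.99 in Normoxia_DEX, 29.1, 54.7 and 45.2 in Hypoxia_PBS, and 35.1, 53.2 and 33.6 in Hypoxia_DEX. Hypoxia_DEX-2 lay far above the other libraries of its group, which are the alike pair, and Hypoxia_PBS-1 far below those of its own. In DEX mice Kdm6b was higher in hypoxia by 0.84 ± 0.25 (1.79-fold, edgeR adjusted p = 0.0206), and the groups did not overlap. The call was lost without Hypoxia_DEX-2 (0.63, adjusted p = 0.0546), Normoxia_DEX-1 (0.84, adjusted p = 0.0579) or Normoxia_DEX-2 (0.79, adjusted p = 0.0669) and with no low-count filter (0.85, adjusted p = 0.0538).

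In PBS mice the oxygen difference of Kdm6b was 0.41 ± 0.25 (adjusted p = 0.222). Without Hypoxia_PBS-1 it was 0.62 and passed the threshold (adjusted p = 0.04998), and without Hypoxia_PBS-1 and Hypoxia_DEX-2 it was 0.62 with an adjusted p of 0.00572. DEX gave -0.52 ± 0.25 in normoxia (adjusted p = 0.203), with separate ranges, and -0.085 ± 0.245 in hypoxia (adjusted p = 0.865). With only the compared normoxia groups in the fit, the difference in normoxia passed (-0.53, edgeR adjusted p = 0.0219). Without Hypoxia_DEX-2 and Hypoxia_PBS-1 both DEX differences passed, at -0.53 (adjusted p = 0.0115) and -0.51 (adjusted p = 0.0369), but the Hypoxia_DEX group was then the alike pair alone. With that pair summed, the difference in hypoxia was 0.034 (adjusted p = 0.964). Neutrophil markers summed to 29.0 to 47.1 CPM in Normoxia_PBS, 9.41 to 15.7 in Normoxia_DEX, 23.5 to 87.0 in Hypoxia_PBS and 17.0 to 40.5 in Hypoxia_DEX. Of the 4 that could be tested, 1 was lower with DEX at each oxygen level. In DEX mice 1 of the 4 was higher in hypoxia, and the sums of those 2 groups did not overlap. The part of the neutrophil markers in the Kdm6b values was not tested. The antisense gene Kdm6bos covers 4.11% of the exon bases of Kdm6b and had 0 to 1 counts per library.

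Kdm2a and Kdm2b remove mono- and dimethyl marks from lysine 36 of histone H3 and bind unmethylated CpG islands through a CXXC zinc finger, and Kdm2b recruits a variant Polycomb repressive complex 1 there. Kdm2a measured 65.9, 75.0 and 68.6 CPM in Normoxia_PBS, 52.0, 54.5 and 50.1 in Normoxia_DEX, 64.8, 72.4 and 84.3 in Hypoxia_PBS, and 48.6, 68.3 and 49.1 in Hypoxia_DEX. In normoxia every DEX library lay below every PBS library. In hypoxia Hypoxia_DEX-2 lay inside the PBS range and the other DEX libraries lay below it. The decrease with DEX was -0.42 ± 0.13 both in normoxia (edgeR adjusted p = 0.0369) and in hypoxia (adjusted p = 0.0461), with a difference between them of 0.00091 and a 95% interval of -0.38 to 0.39.

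The Kdm2a calls depended on single libraries. The call in normoxia was lost when any 1 of the 6 libraries compared was left out, with adjusted p between 0.0538 and 0.134. The call in hypoxia was lost in 13 of 19 alternatives, among them the 2 alike Hypoxia_DEX libraries summed (-0.32, adjusted p = 0.183) and Hypoxia_DEX-1 left out (-0.32, adjusted p = 0.190). Without Hypoxia_DEX-2 the decrease was -0.57 (adjusted p = 0.00359), and without that library and Hypoxia_PBS-1 it was -0.65 (adjusted p = 0.000340). Oxygen gave 0.079 ± 0.126 in PBS mice and 0.080 ± 0.127 in DEX mice.

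Kdm2b had the fewest reads and wide replicates. It measured 5.04, 3.87 and 7.05 CPM in Normoxia_PBS, 7.03, 6.51 and 5.28 in Normoxia_DEX, 10.1, 7.74 and 5.77 in Hypoxia_PBS, and 7.52, 5.77 and 7.88 in Hypoxia_DEX. The 4 ranges overlapped, and no comparison passed. The nearest was hypoxia in PBS mice, at 0.58 ± 0.23 (unadjusted p = 0.0282, edgeR adjusted p = 0.0708), which passed without Hypoxia_PBS-3 (0.76, adjusted p = 0.0290) or Normoxia_PBS-3 (0.82, adjusted p = 0.0191). Exons of the neighbouring Rnf34 on the other strand cover 5.77% of its exon bases, and the strand setting of the counting is not given in the sources used here, so reads could be shared.

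Tet2 and Tet3 were the DNA demethylases of the set, and both were lower with DEX in hypoxia. Tet2 measured 20.7, 21.1 and 21.4 CPM in Normoxia_PBS, 18.2, 17.7 and 18.2 in Normoxia_DEX, 18.997, 18.8 and 19.7 in Hypoxia_PBS, and 13.8, 15.2 and 12.4 in Hypoxia_DEX. The 4 groups did not overlap, and the libraries given both treatments were the lowest of all. DEX lowered Tet2 in hypoxia by -0.48 ± 0.083 on the log2 scale, to 0.717 of the PBS level (edgeR adjusted p = 0.00189). Among DEX mice hypoxia lowered it by -0.39 ± 0.082 (adjusted p = 0.00186), and both calls held in all 19 alternatives. The single treatments gave smaller differences that did not pass: -0.22 ± 0.080 for DEX in normoxia (adjusted p = 0.0750) and -0.14 ± 0.080 for hypoxia in PBS mice (adjusted p = 0.210). The former passed without Hypoxia_DEX-2 (-0.24, adjusted p = 0.0428) and without that library and Hypoxia_PBS-1 together (-0.24, adjusted p = 0.0364).

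Tet3 measured 22.3, 28.0 and 33.2 CPM in Normoxia_PBS, 18.3, 19.8 and 20.1 in Normoxia_DEX, 26.1, 36.7 and 36.5 in Hypoxia_PBS, and 20.9, 17.9 and 18.1 in Hypoxia_DEX. At both oxygen levels every DEX library lay below every PBS library. DEX lowered Tet3 by -0.80 ± 0.15 in hypoxia, to 0.574 of the PBS level (edgeR adjusted p = 0.00417), and this held in all 19 alternatives at -0.92 to -0.70. In normoxia the decrease was -0.52 ± 0.15 (adjusted p = 0.0322), and it was lost in 5 of the 6 fits that left out a compared library, all but that without Normoxia_PBS-1, with adjusted p of 0.0623 to 0.120. The 2 responses differed by -0.28, with a 95% interval of -0.75 to 0.18 (adjusted p = 0.655). Oxygen gave 0.25 ± 0.15 in PBS mice (adjusted p = 0.212), which passed without Hypoxia_PBS-1 (0.38, adjusted p = 0.0370) or without it and Hypoxia_DEX-2 (0.38, adjusted p = 0.0398), and -0.031 ± 0.154 in DEX mice.

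**Figure D4:**
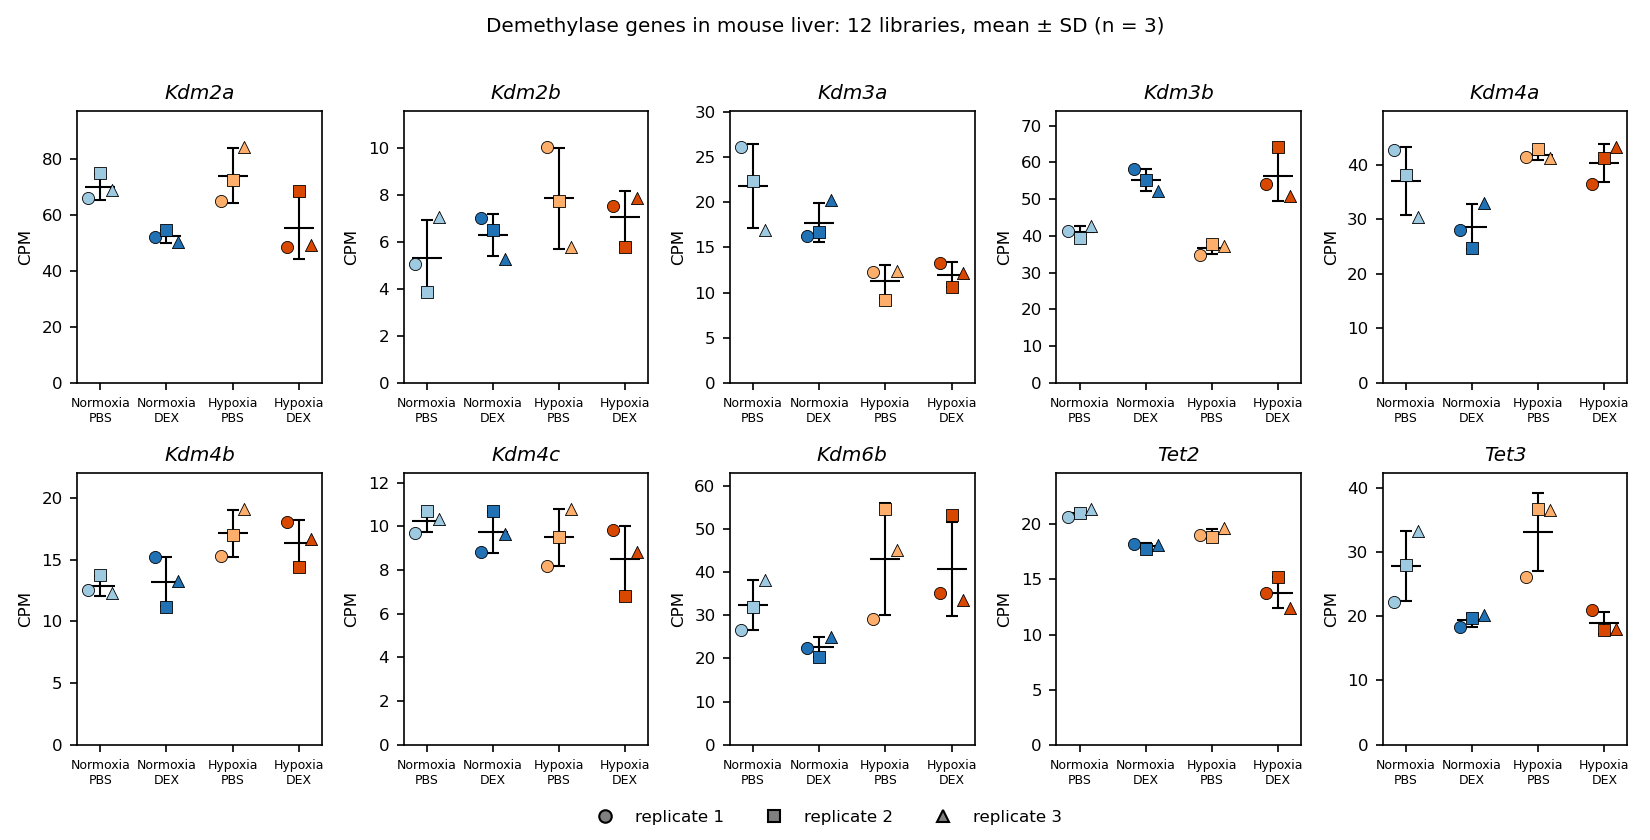
CPM of each of the 10 genes in every library, with a symbol for the replicate number, and the group mean and SD as bars (n = 3 per group, each axis starting at 0). The Tet2 points form 4 separate groups, Kdm3b is high in both DEX groups, Kdm3a is low in both hypoxia groups, and the Kdm6b points of the hypoxia groups are widely spread.

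None of the 10 genes had a DEX response that was called different between hypoxia and normoxia. By the interaction test in edgeR, 0 were called and 1 of the 10 genes passed 0.05 before adjustment. That gene was Tet2, with -0.26 ± 0.11 (edgeR adjusted p = 0.381), and DESeq2 also called 0. Over all tested genes 1.32% were called, 0.325% with a higher and 0.996% with a lower response in hypoxia. The intervals were wide: they ran from -0.10 to 0.89 for Kdm3a, from -1.11 to 0.31 for Kdm2b and from -0.35 to 1.21 for Kdm6b.

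Genes that write the opposing marks, partner with these enzymes or supply their cosubstrate were read from 11 lists with 82 genes, of which 75 were tested. Hypoxia in PBS mice raised 15 and lowered 11 of the 75, and in DEX mice it raised 13 and lowered 14. DEX raised 7 and lowered 8 in normoxia, and raised 8 and lowered 11 in hypoxia. As for the 10 genes, these counts are read beside the backgrounds given above. Examples come from the calls with the largest changes, at most 3 per list and direction. These were 75 calls, of which 38 held in all alternatives run and 37 were lost in at least 1. Losses among the 37 are marked below only in part, so an unmarked call is not thereby stable. Kdm4d, Kdm5d, Tet1, Uty, Rcor2, Skp1 and Cxxc4 did not enter the tests.

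Among 4 genes that write or maintain DNA methylation, DEX lowered 3 in normoxia: Dnmt3a, a de novo methyltransferase, from 21.2 ± 0.492 to 14.1 ± 1.17 CPM (a log2 difference of -0.58, adjusted p = 0.00115 in edgeR), Dnmt3b, the other de novo enzyme, from 2.51 ± 0.147 to 1.21 ± 0.185 (-1.05, adjusted p = 0.00153), and Dnmt1, the maintenance methyltransferase, from 11.1 ± 1.71 to 7.73 ± 0.641 (-0.53, adjusted p = 0.0117). In hypoxia it lowered 2 of 4, Dnmt3a by -0.54 (adjusted p = 0.00342) and Dnmt3b by -1.48 (adjusted p = 0.000190). The list's median log2 fold change was -0.56 and -0.42, beside 0.0021 and -0.015 for all tested genes. Both de novo methyltransferases and both Tet enzymes were thus called lower with DEX in hypoxia. In PBS mice hypoxia raised Dnmt3b (0.64, adjusted p = 0.0101) and lowered Dnmt1 (-0.49, adjusted p = 0.0108) and Uhrf1, which brings Dnmt1 to newly replicated DNA. That Dnmt3b call was lost without Hypoxia_PBS-1 (0.53, edgeR adjusted p = 0.0538). Uhrf1 was near the limit of counting, at 0.742 ± 0.358 CPM in Normoxia_PBS and 0.0438 ± 0.0386 in Hypoxia_PBS (adjusted p = 0.000707), and its fold is not given here.

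Among partners of the TET enzymes and genes that remove the oxidised bases, DEX lowered 3 of 5 tested genes in normoxia and 2 of 5 in hypoxia, and none was higher. Cxxc5, a CXXC protein that binds Tet2, went from 42.0 ± 0.156 to 17.9 ± 4.74 CPM in normoxia (-1.24, edgeR adjusted p = 7.37e-05) and from 38.4 ± 4.69 to 19.6 ± 1.39 in hypoxia (-0.96, adjusted p = 0.00102). Ogt, the O-GlcNAc transferase that associates with TET proteins, fell by 0.33 (adjusted p = 0.00662) and by 0.45 (adjusted p = 0.00117). Mbd4, a DNA glycosylase, fell by 1.42 in normoxia from a low level of 1.35 ± 0.231 CPM (adjusted p = 0.0138). No member of this list was called for hypoxia in either arm.

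Among the other oxygen-dependent demethylases, 14 tested, hypoxia in PBS mice raised 1 and lowered 4. Alkbh5, an RNA demethylase, was higher (0.46, edgeR adjusted p = 0.0430), and the Kdm5 enzymes for lysine 4 of histone H3 were among those lower, Kdm5b by -0.46 (adjusted p = 0.00961) and Kdm5a by -0.30 (adjusted p = 0.0222), with Kdm8 at -0.60 (adjusted p = 0.0373). The Alkbh5 call was lost in 14 of 19 alternatives and that of Kdm8 in 8. That of Kdm5a was lost in 3, among them without Hypoxia_PBS-1 (-0.24, edgeR adjusted p = 0.0676). In DEX mice hypoxia raised none and lowered 4, with Kdm5b at -0.76 (adjusted p = 0.000282). DEX raised 3 and lowered none in normoxia: Phf8, a demethylase of lysine 9 (0.91, adjusted p = 0.0306), Alkbh1 (0.47, adjusted p = 0.0244) and Kdm5c (0.32, adjusted p = 0.0151). In hypoxia it raised 4 and lowered 1, again with Phf8 (0.88, adjusted p = 0.0470) and Alkbh1 (0.61, adjusted p = 0.00887), while Alkbh5 was lower (-0.60, adjusted p = 0.0285). The Phf8 calls were lost in 8 and 13 of 19 alternatives, and the call of Alkbh5 with DEX in 7.

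The FAD-dependent demethylases do not use 2-oxoglutarate, and 4 of their genes and partners were tested. Kdm1b, which acts on lysine 4 of histone H3, rose with hypoxia in PBS mice (0.39, edgeR adjusted p = 0.000645) and with DEX in normoxia (0.26, adjusted p = 0.0159). In hypoxia DEX lowered 2 of 4, the corepressors Rcor3 (-0.67, adjusted p = 0.0420) and Rcor1 (-0.39, adjusted p = 0.0210), which were lost in 12 and 6 of 19 alternatives. Kdm1a was lower in hypoxia among DEX mice (-0.28, adjusted p = 0.0308, lost in 8).

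For writers of lysine 9 methylation, hypoxia in PBS mice raised Suv39h1 (0.48, edgeR adjusted p = 0.0422, lost in 14 of 19 alternatives) and lowered Setdb1 (-0.44, adjusted p = 0.00373), which makes 1 of 6 in each direction. In DEX mice 3 of 6 were called: Suv39h1 was higher in hypoxia (0.90, adjusted p = 0.000893, held in all 19 alternatives), as was Ehmt2 (0.27, adjusted p = 0.0221), and Setdb1 was lower (-0.38, adjusted p = 0.00708). DEX itself gave 0 calls among the 6 at either oxygen level. For lysine 27, Jarid2, a subunit of Polycomb repressive complex 2, was the only 1 of 5 called in any comparison: it rose with hypoxia in PBS mice (0.49, adjusted p = 0.00290) and fell with DEX by 0.52 in normoxia (adjusted p = 0.00404) and by 0.69 in hypoxia (adjusted p = 0.000877). In DEX mice it was higher in hypoxia (0.32, adjusted p = 0.0309, lost in 7 of 19 alternatives). For lysine 36, 1 of 5 was called in 1 comparison, Nsd1 with DEX in hypoxia (-0.26, adjusted p = 0.0376, lost in 13 of 19 alternatives). For lysine 4, hypoxia lowered 1 of 6 in PBS mice, Setd1b (-0.54, adjusted p = 0.0328), and 3 of 6 in DEX mice, Setd1b (-0.55, adjusted p = 0.0254), Kmt2a (-0.32, adjusted p = 0.00612) and Kmt2d (-0.30, adjusted p = 0.00910). DEX lowered 1 of 6 in normoxia, Kmt2c (-0.38, adjusted p = 0.0288). The Setd1b calls were lost in 5 and 8 of 19 alternatives, the Kmt2d call in 3 and the Kmt2c call in 4. In the Polycomb complex that Kdm2b recruits, 7 genes tested, hypoxia in PBS mice raised Usp7 by 0.18 (adjusted p = 0.0408, lost in 15 of 19 alternatives) and lowered Rnf2, its ubiquitin ligase, by -0.26 (adjusted p = 0.0303). That Rnf2 call was lost in 5 of 19 alternatives, among them without Hypoxia_PBS-1 (-0.21, edgeR adjusted p = 0.0901). Rnf2 was also lower in hypoxia among DEX mice (-0.32, adjusted p = 0.00920). DEX lowered Bcorl1 in hypoxia from 8.97 ± 2.18 to 4.28 ± 1.29 CPM (-1.10, adjusted p = 0.00416).

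Of 15 enzymes that make or use 2-oxoglutarate, succinate and fumarate, 7 were higher in hypoxia and 1 was lower in PBS mice, and 9 were higher and 3 lower in DEX mice. The list's median log2 fold change was 0.16 and 0.24, beside 0.0069 and -0.021 for all tested genes. Dlst, a subunit of the 2-oxoglutarate dehydrogenase complex, went from 158 ± 5.58 to 234 ± 30.7 CPM in PBS mice (0.57, edgeR adjusted p = 0.000270). Idh3a, a subunit of the mitochondrial enzyme that makes 2-oxoglutarate, rose by 0.57 (adjusted p = 0.00115) and Sdhb, a subunit of succinate dehydrogenase, by 0.51 (adjusted p = 0.000590). Idh2 was lower (-0.36, adjusted p = 0.0199), a call lost in 3 of 19 alternatives, among them without Hypoxia_PBS-1. In DEX mice the 3 lower genes were Glud1 (-0.57, adjusted p = 0.000355), Idh2 (-0.46, adjusted p = 0.00436) and Idh1 (-0.32, adjusted p = 0.0236). DEX raised 1 of 15 in normoxia, Idh3a (0.54, adjusted p = 0.00285), and 3 of 15 in hypoxia, and lowered none.

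The HIF hydroxylases, dioxygenases that use the same cosubstrates to mark HIF in normal oxygen, numbered 4. Hypoxia in PBS mice raised Egln1 from 22.01 ± 2.09 to 33.1 ± 2.29 CPM (0.59, edgeR adjusted p = 0.000281) and Egln3 from 16.0 ± 3.72 to 30.9 ± 8.41 (0.94, adjusted p = 0.00875), and lowered Hif1an (-0.32, adjusted p = 0.00712). In DEX mice Egln1 was again higher in hypoxia (0.31, adjusted p = 0.0132) and Hif1an lower (-0.35, adjusted p = 0.00276), while Egln3 gave 0.016 (adjusted p = 0.965), from 10.9 ± 0.179 to 11.1 ± 2.78 CPM. Kdm3a was lower in hypoxia in both arms. DEX raised Egln2 by 0.64 in normoxia (adjusted p = 1.36e-05) and by 0.37 in hypoxia (adjusted p = 0.00207), and lowered Egln3 in hypoxia by -1.49 (adjusted p = 0.00217).

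**Figure D5:**
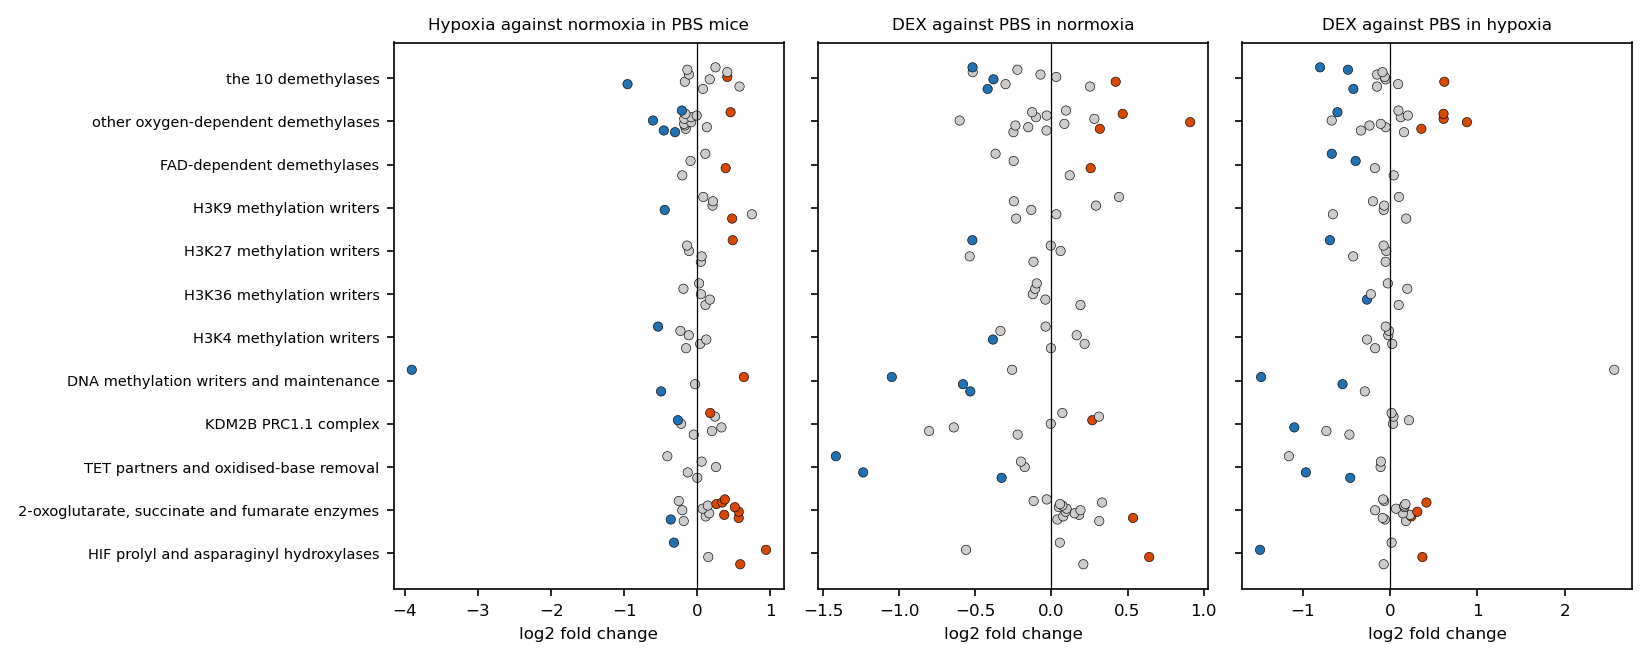
Log2 fold change of every tested gene in the 10 demethylases and in 11 related lists, for 3 comparisons, with a separate horizontal scale in each panel. Orange and blue points are higher and lower at an adjusted p under 0.05 and grey points are not called; the far left point in the first panel is Uhrf1, whose fitted value of -3.91 rests on very few counts.

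The genes whose levels were most like those of Kdm3a, Kdm4b and Kdm6b were found by Pearson correlation of log2 CPM over the 12 libraries, among 8987 genes of at least 5 CPM on average. For Kdm3a they were Casc3 (r = 0.951), Slc36a4 (0.945) and Zfp748 (0.939). For Kdm4b they were Ube2o (0.944), Kat6b (0.942) and Cad (0.929). For Kdm6b they were Il17ra (0.987), Hif1a (0.985) and Mob3c (0.962). The 12 libraries are 4 groups of 3, so such values reflect shared group differences and the same 12 libraries, and they are given as a description.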

How the data were processed

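The authors' deposited table held raw counts per Ensembl gene for 12 libraries. Per the submitters' processing notes, Trimmomatic, HISAT2 2.0.4, HISAT, SAMtools, featureCounts, DESeq2 and mm10 were involved, with no role or order named. No source used here names the annotation or the strand setting. Per the labels, the library kit was stranded and selected mRNA. A treatment text calls both oxygen arms hypoxia, and the sample titles were followed.

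Counts were analysed in R 4.3.3 with edgeR 4.0.16 (filterByExpr, TMM, robust glmQLFit, glmQLFTest), with 1 mean per group over 12 libraries and 8 residual degrees of freedom. P-values were adjusted by Benjamini and Hochberg's method across the 13861 tested genes, and a call is an adjusted p under 0.05. CPM used TMM-scaled library sizes, and log2 CPM a prior count of 2. The series text calls the replicates biological without saying that each is a separate mouse, so p-values measure the spread between these samples.

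The 10 genes, the lists and the tests were chosen with earlier results of these data known. Named are the 10 genes, up to 3 called genes per list and direction with the largest changes, the 3 most alike genes of Kdm3a, Kdm4b and Kdm6b, and 4 genes that check the labels. The tried alternatives were DESeq2 1.42.0, RLE scaling, no filter on low counts, a block for replicate number, a fit of the compared groups alone, every library left out in turn, the alike Hypoxia_DEX pair summed, and Hypoxia_DEX-2 left out with Hypoxia_PBS-1. Chi-squares of replicate pairs used genes with a summed count of at least 20. The model was run on simulated counts with 200 genes changed in Hypoxia_DEX, to check the fit and the sign of each comparison. The simulated libraries were drawn independently, so this run cannot speak to the alike pair.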

Additional observations from a re-analysis of the deposited data

Results flagged for a closer look

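The DEX response of Kdm1b, an FAD-dependent demethylase, differed between oxygen levels by the interaction test: its log2 value in hypoxia minus that in normoxia was -0.43 (edgeR, adjusted p = 0.0424). The response was 0.26 in normoxia (adjusted p = 0.0159) and -0.17 in hypoxia (adjusted p = 0.111). Group means were 23.4 ± 0.798 CPM in Normoxia_PBS, 27.9 ± 1.67 in Normoxia_DEX, 30.6 ± 0.721 in Hypoxia_PBS and 27.2 ± 0.387 in Hypoxia_DEX (SD, n = 3). The call was lost in 16 of 18 alternatives, and groups of 3 could not be tested for outlying libraries.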

How the results depend on the processing

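Of 940 values of the 10 genes under alternatives, 843 kept direction and side of the threshold, 49 lost and 17 gained a call, and 31 changed sign, all of them values that were not called. The causes were not tested. With DESeq2 369 genes were called for the interaction instead of 183, with the alike Hypoxia_DEX pair summed 70, and with Hypoxia_DEX-2 and Hypoxia_PBS-1 left out 475; leaving out single libraries gave 63 to 306. For DEX in hypoxia (1827 genes) the pair summed gave 1160, only the compared groups 1180, and single libraries left out 1072 to 2466. For hypoxia in PBS mice, 4 of the 10 genes were called without Hypoxia_DEX-2 and Hypoxia_PBS-1 and 1 to 4 without single ones, and for DEX in normoxia 1 to 4. The replicate number is not stated to pair libraries and was not used as a block in the main fit. Deviations of same-numbered libraries correlated at -0.0741 to 0.390. Differently numbered libraries were not compared in this way, so these values cannot decide whether the number pairs libraries. With the replicate number as a block 2, 3, 4, 4 and 0 of the 10 genes were called, against 2, 4, 4, 4 and 0. Signs changed as follows. Kdm6b with DEX in hypoxia became 0.034 with the pair summed. Without Hypoxia_DEX-2 and Hypoxia_PBS-1, Kdm2a became -0.22 in the interaction (-0.010 with the block) and -0.071 for hypoxia in DEX mice, where Kdm3b became -0.046 and Tet3 0.031, and Kdm2b with DEX in hypoxia became 0.22. With single libraries left out, values ranged from -0.027 to 0.15 for Kdm2a in hypoxia with PBS and from -0.080 to 0.14 for Kdm4b with DEX in normoxia. For DEX in hypoxia they ranged from -0.33 to 0.11 (Kdm2b), -0.015 to 0.19 (Kdm3a), -0.090 to 0.036 (Kdm4a), -0.11 to 0.044 (Kdm4b) and -0.29 to 0.14 (Kdm6b). For hypoxia in DEX mice they ranged from -0.072 to 0.18 (Kdm2a), -0.047 to 0.12 (Kdm3b) and -0.088 to 0.030 (Tet3), and for the interaction from -0.14 to 0.12 (Kdm2a), -0.18 to 0.024 (Kdm4b) and -0.16 to 0.083 (Kdm4c). Low counts limit Kdm2b most, with 66 to 172 reads per library.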
